A study of Danio rerio with 18 samples.

Results

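The transcripts described here were raised by all-trans retinoic acid (atRA) at 12 somites and lay close to control at 80% epiboly and at 24 hours post fertilisation (24 hpf). They were chosen by measured values: for each of 58549 transcript IDs, d was the log2 of the mean atRA CPM plus 0.5 over the mean control CPM plus 0.5, where CPM is the count x 1e6 over the sum of transcript counts of its library. Members had a d of at least 1 at 12 somites and an absolute d under 0.5 at 80% epiboly and at 24 hpf. This gave 125 members of 58549, fewer than the limit of 200 that the rule allowed. RNA came from whole wild-type zebrafish embryos raised at 28°C, in 6 groups of 3 replicate libraries. Embryos collected at 80% epiboly, during gastrulation, had received 0.1 µM atRA or the solvent DMSO, the control, from 30% epiboly. Those collected at 12 somites, when the trunk is being segmented, or at 24 hpf had received either agent from 80% epiboly. Stage and the time of exposure therefore changed together. The labels do not say whether replicates came from separate clutches. The p-values set differences against the spread between these libraries and may not extend to other clutches.

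Retinoic acid is made from vitamin A and binds retinoic acid receptors, which sit on DNA as heterodimers with retinoid X receptors and switch from repressing to activating nearby genes. In vertebrate embryos it patterns the hindbrain and spinal cord along the anterior-posterior axis and acts in the somites, heart, pancreas and fin buds. Its level is kept in bounds by enzymes that make it and by cytochrome P450 enzymes of the Cyp26 family that break it down, and added retinoic acid is a known teratogen in fish embryos. The files give versioned Ensembl transcript IDs, and 0 of the 58549 were paired with a gene in the reference tables used here. No gene, pathway or cell type could therefore be named, no tissue marker could be checked and no sequence is shown. In whole embryos, a change in the number of cells that hold a transcript and a change in RNA per cell cannot be told apart.

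Transcript counts per library lay between 80522765 and 115511468 at 80% epiboly, between 77807705 and 88004323 at 12 somites and between 38673189 and 72734557 at 24 hpf. At 12 somites the atRA libraries, at most 86123564 counts, were all shallower than the control libraries, at least 87637013 counts. At 24 hpf the atRA libraries, at most 50505506 counts, were again all shallower than the controls, at least 68391282 counts. The labels give no preparation or sequencing batch, so one that followed treatment cannot be told apart from it. The common coefficient of variation between replicates in edgeR was 0.049 at 12 somites, 0.0774 at 80% epiboly and 0.202 at 24 hpf.

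The rule picked the members out of 477 transcripts with a d of at least 1 at 12 somites. Of these 477, 233 had a d of at least 0.5 at 80% epiboly and 12 had one of -0.5 or less there. The d at 80% epiboly came from other embryos, exposed from an earlier stage than those collected at 12 somites. These counts therefore do not follow a response through time. Of the 232 with an absolute d under 0.5 at 80% epiboly, 99 stood at 0.5 or more at 24 hpf, 8 stood at -0.5 or less, and the remaining 125 are the members. The members' d at 12 somites ran from 1.00 to 2.37 with a median of 1.19. It was under 1.25 in 70 members, at least 1.5 in 33 and at least 2 in 5, so most members lay close to the threshold. Just inside it, 26 members had a d of 1.00 to 1.05, and just outside it 29 transcripts that met the other conditions had one of 0.95 to 1.00. At the limit of 0.5, 7 members lay within 0.05 of it at 80% epiboly against 6 transcripts just outside, and at 24 hpf the numbers were 8 and 5.

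The rise at 12 somites was seen in each library. Relative to the stage's control mean, the median member stood at a log2 ratio of 1.19, 1.21 and 1.22 in the 3 atRA libraries and at 0.031, -0.051 and 0.0033 in the 3 controls, with the pseudocount of 0.5 CPM. Every atRA library was above every control library in all 125 members, an arrangement found in 21% of the 41090 transcripts tested at this stage. All 125 were called higher by the quasi-likelihood test of edgeR, at a Benjamini-Hochberg adjusted p under 0.05, against 17.7% of all transcripts tested. Both counts follow from the rule, which used this contrast, and are given as description. Without the pseudocount built into the rule, the log2 fold changes that edgeR fitted were larger, from 1.03 to 6.89 with a median of 1.71.

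**Figure D1:**
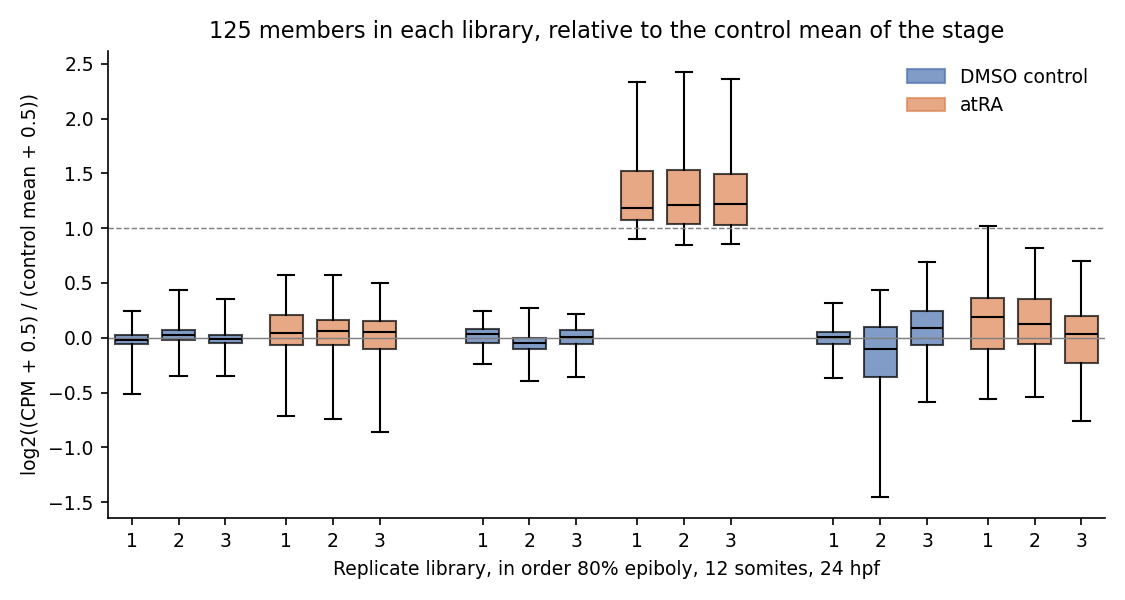
Each box shows the 125 members in 1 library as the log2 of CPM plus 0.5 over the stage's control mean plus 0.5, with the box at the quartiles, the line at the median and whiskers to the lowest and highest member. Blue boxes are DMSO controls and orange boxes atRA. The 3 atRA libraries at 12 somites have medians of 1.19, 1.21 and 1.22. Quartiles of 24 hpf control replicates 2 and 3, at -0.355 to 0.0947 and -0.0671 to 0.243, lie further apart than in any control of the earlier stages.

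At 80% epiboly the d of members ran from -0.47 to 0.50 with a median of 0.043. A flat d at this stage came with low levels in many members: 64 of the 125 (51.2%) had a mean under 0.5 CPM in both groups, where the pseudocount pulls d towards 0. The share was 31.0% of the 477 transcripts with a d of at least 1 at 12 somites. It was 29.3% of the 43237 transcripts tested between the control stages. Neither set was required to have a flat d at 80% epiboly, so part of the difference was set by the rule. Among these 64, the plain ratio of mean CPM, atRA over control, was at least 2 in 26 members and at most 0.5 in 3. Members with a control mean of 0 CPM have no such ratio and are in neither count, although they held some counts with atRA. The share of such ratios among all transcripts at this level was not counted. Of 83 members with enough counts for the edgeR test, 11 were called higher and 13 lower at an adjusted p under 0.05, against 14.1% higher and 13.7% lower among 38203 transcripts tested. The 24 calls became 14 of 90 members tested without atRA replicate 3 and 15 of 86 without atRA replicate 2, while the share called in either direction over all transcripts went from 27.8% to 22.4% and 20.5%. With library totals in place of TMM factors, 11 were called higher and 7 lower, against 18.3% and 9.59% of all transcripts tested. The rule limited these differences, so the counts are descriptions. The called log2 fold changes ran from -0.93 to 5.31. Those of at least 1 belonged to 5 members, from 1.38 to 5.31, against 4.22% of all transcripts tested. None of these members had a group mean above 0.225 CPM at this stage.

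At 24 hpf d ran from -0.45 to 0.49 with a median of 0.15, and it was above 0 in 80 of 125 members. On this scale of library totals the median of all 41404 transcripts tested stood at a fitted log2 fold change of -0.10, against -0.013 with TMM factors. In the median member the atRA libraries stood at log2 ratios of 0.19, 0.13 and 0.036 to the control mean, and the controls at 0.0032, -0.11 and 0.087. Control replicate 2 was the lowest of these libraries, with 3 members at -1 or less. Of 118 members tested, 5 were called higher and 0 lower by edgeR's quasi-likelihood test, against 4.09% higher and 5.51% lower among 41404 transcripts tested. An unadjusted p under 0.05 in this test was found for 28 members (23.7%), against 25.4% of all transcripts. By direction, 23 of these were higher (19.5% of members tested) and 5 lower (4.24%), against 11.9% and 13.6% of all transcripts. The DESeq2 Wald test called 8 higher and 1 lower, against 6.5% and 7.73% of all transcripts. edgeR with library totals called 1 higher and 1 lower, against 3.03% and 6.93%. Leaving out control replicate 2 gave 17 called members of 117 (14.5%), where 20.6% of all transcripts were called. Of these members 16 were higher (13.7%) and 1 lower (0.855%), against 9.77% and 10.9% of all transcripts. With control replicate 3 left out, 1 member and 6.85% of all transcripts were called. No member was called without control replicate 1, where 2.22% of all transcripts were called, or without any single atRA library, where 1.54 to 3.08% were. The rule limited d at this stage as well, so all these counts are descriptions.

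The error at the flat stages was wide enough to matter for what flat means here. The 95% interval on the log2 fold change extended to either side by a median of 0.24 over the 125 members tested at 12 somites. It was 0.38 over the 83 tested at 80% epiboly and 0.50 over the 118 tested at 24 hpf. Members with too few counts were left out, so the medians cover different sets of members. At 80% epiboly the interval lay within -1 to 1 in 58 of 83 members tested, reached 1 or more in 16 and reached -1 or less in 13. At 24 hpf it lay within -1 to 1 in 72 of 118 members, reached 1 or more in 39 and reached -1 or less in 8. These fitted changes do not carry the rule's pseudocount of 0.5 CPM, so for transcripts of low level a fitted value of 1 corresponds to a d below 1. edgeR adds a small count of its own, which keeps fitted changes finite where a group held 0 counts.

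**Figure D2:**
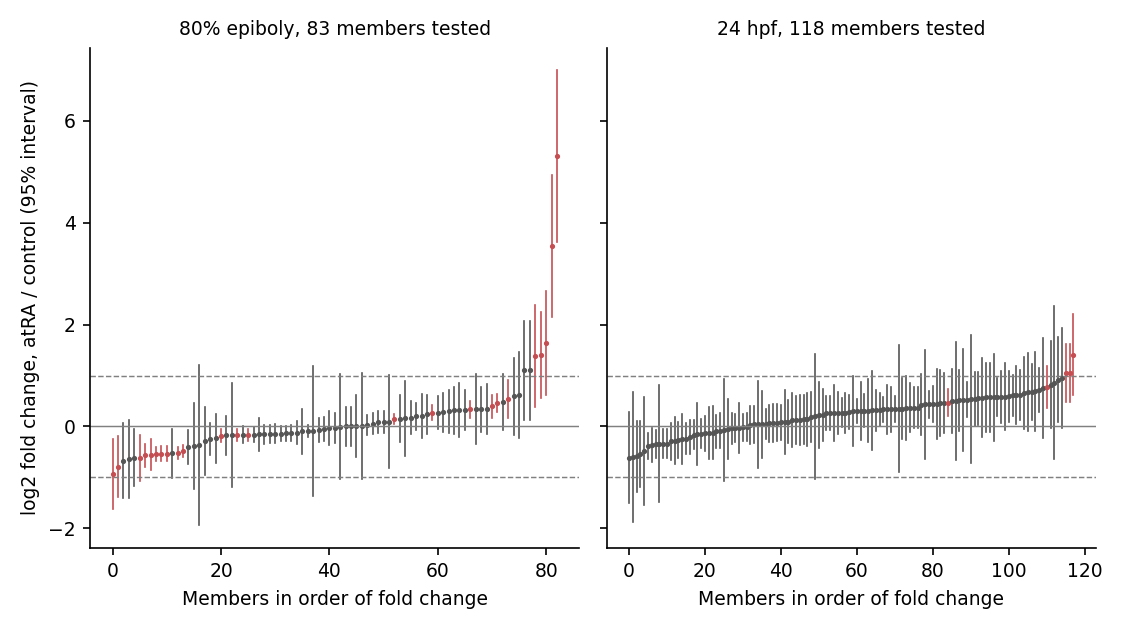
Points are the log2 fold changes of atRA over control that edgeR fitted for each tested member at 80% epiboly (83 members) and at 24 hpf (118 members), in rising order, with 95% intervals as lines. Red marks members called at an adjusted p under 0.05, and dashed lines stand at -1 and 1. Intervals reach 1 or more in 16 members at 80% epiboly and in 39 at 24 hpf, and -1 or less in 13 and 8.

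The course of the members through development was compared between 80% epiboly and 24 hpf in the DMSO controls, a contrast that holds no 12 somites library. It is not fully independent of the rule, because the control means of these stages were the denominators of d there. Members were called in both directions, as transcripts in general were. By edgeR's quasi-likelihood test, 77 of the 125 rose from 80% epiboly to 24 hpf and 36 fell, while 8 were not called and 4 had too few counts to be tested. Among all 43237 transcripts tested, 43.5% rose and 36.7% fell, so 80.3% were called in either direction. The median log2 ratio of control 24 hpf over control 80% epiboly, with 0.5 CPM added to each mean, was 1.35 over all 125 members and 0.38 over all transcripts tested. With library totals in place of TMM scaling, 79 members rose and 34 fell, although the median of all tested transcripts moved from 0.16 to 0.54 and the share that rose among all called transcripts went from 18818 of 34701 to 21810 of 34179.

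These counts moved with the level at 80% epiboly, which the rule touched through its pseudocount. Of the 64 members under 0.5 CPM in both groups at that stage, 58 rose (90.6%), 2 were not called and 4 were not tested. Among all tested transcripts at that low level, 76.7% rose. Of the 61 members at or above 0.5 CPM in a group, 19 rose (31.1%) and 36 fell (59.0%). Among the 30553 tested transcripts at that level, 29.8% rose and 47.9% fell. The share of rises among members at the higher level was thus close to the background. With at least 10 counts required in every library, which leaves out transcripts near 0 at a stage, 63 members could be tested. Of these, 27 rose and 31 fell, so that falls outnumbered rises, against 39.9% and 36.8% of 33267 transcripts.

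The 77 members that rose had fitted log2 fold changes of 1.06 to 11.7 between the control stages, with a median of 4.71. Their median of mean CPM in the 80% epiboly controls was 0.0623. Sizes fitted for members near 0 there depend partly on the small count that edgeR adds. The 36 that fell had changes of -10.0 to -0.88, with a median of -3.14. In the embryos treated with atRA, the same stages gave 79 members higher and 34 lower at 24 hpf than at 80% epiboly, against 44.1% and 40.2% of 41813 transcripts tested. With at least 10 counts in every library it was 38 higher and 28 lower of 72 members tested, against 42.1% and 40.8% of 32590 transcripts. Of the 77 that rose in controls, 74 also rose under atRA and 0 fell. Of the 36 that fell in controls, 33 also fell and 0 rose. The rule keeps atRA close to control at both of these stages, so this likeness was partly set by it.

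**Figure D3:**
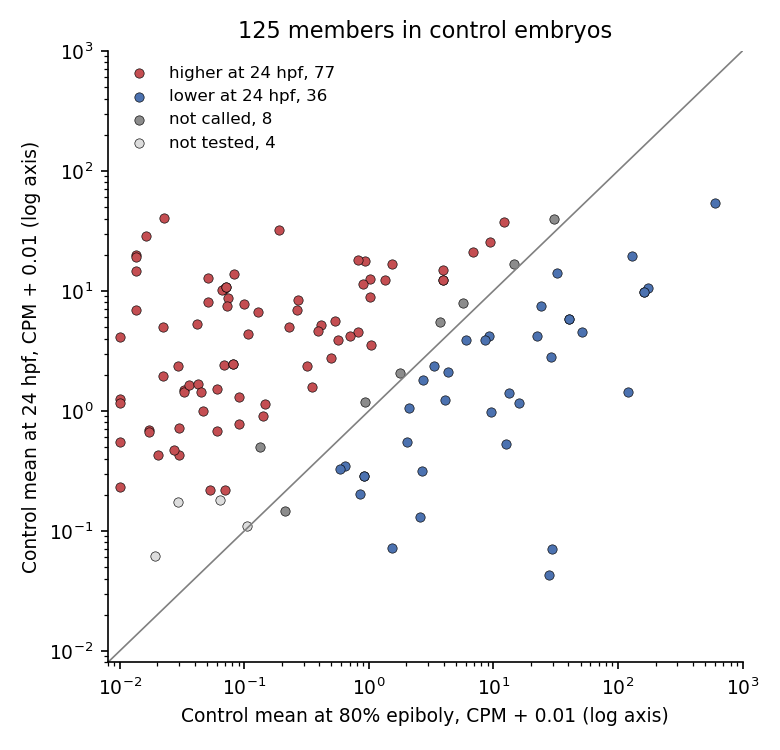
Each point is a member, with its mean CPM in the 3 control libraries of 80% epiboly on the horizontal log axis and in those of 24 hpf on the vertical log axis, 0.01 CPM added to each. The 77 members called higher at 24 hpf are red and lie above the diagonal, the 36 called lower are blue and lie below it, and grey marks 8 not called and 4 not tested.

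Next, the atRA level at 12 somites was set beside the control levels of all stages. This shares the 12 somites libraries with the rule and is description only. Among the 77 members that rose through development, the median of mean CPM in controls went from 0.0623 at 80% epiboly to 1.23 at 12 somites and 4.59 at 24 hpf, and the control means rose in this order in 65 of them. With atRA the median at 12 somites was 3.78 CPM, between the control medians of 12 somites and 24 hpf. Member by member, however, the 12 somites atRA mean was above the 24 hpf control mean in 41 of the 77. All 3 atRA libraries at 12 somites were below all 24 hpf controls in 27 of the 77 (35.1%) and above all of them in 36 (46.8%), where 32.6% and 34.1% of the 41090 transcripts tested at 12 somites were so placed. The share below was close to that of all transcripts. These 77 members were chosen as higher at 24 hpf than at 80% epiboly and all transcripts were not, so no conclusion is drawn from that closeness.

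Among the 36 members that fell through development, the median of mean CPM in controls went from 11.0 at 80% epiboly to 3.23 at 12 somites and 1.61 at 24 hpf, falling in this order in 30 of them. With atRA the median at 12 somites was 8.43 CPM. All 3 atRA libraries at 12 somites were below all 80% epiboly controls in 22 of the 36 (61.1%) and above all of them in 9 (25%), against 29.2% and 55.3% of the transcripts tested at 12 somites. In 35 (97.2%) they were above all 24 hpf controls, against 34.1% of the transcripts tested. These 36 members were chosen as lower at 24 hpf than at 80% epiboly and all transcripts were not. No conclusion is therefore drawn from the comparisons with either stage. By group means, the 12 somites atRA level was above the 24 hpf control level in 35 of the 36 and above the 80% epiboly control level in 11.

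Over all 125 members, the 12 somites atRA libraries were above every control library of every stage in 54 (43.2%). This arrangement was found in 6.23% of the 41090 transcripts tested at 12 somites and, among the 477 transcripts with a d of at least 1 at 12 somites, in 285 (59.7%). The members thus held it less often than the 477 they were drawn from as a share, a difference that was not tested. In controls, 79 members had their highest mean at 24 hpf, 35 at 80% epiboly and 11 at 12 somites. The background was 32799 transcripts whose higher group mean at 12 somites was at least the members' lowest, 0.683 CPM. Of these, 38.2% were highest at 24 hpf, 31.6% at 80% epiboly and 30.2% at 12 somites. A low 12 somites control mean raises d there, so the members' counts are not independent of the rule.

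**Figure D4:**
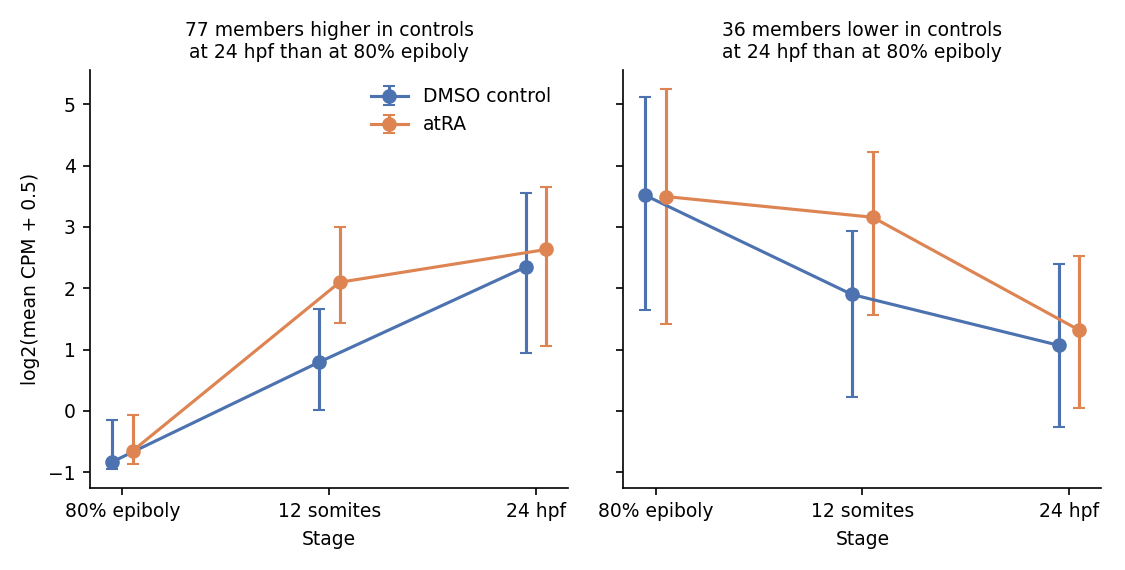
Points are medians over members of log2 of mean CPM plus 0.5 at each stage, with bars from the lower to the upper quartile of the members, in DMSO controls (blue) and atRA (orange). Left, the 77 members that rose between the control stages; right, the 36 that fell. In both panels the groups lie apart at 12 somites, where the rule required it, and close together at the other stages.

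The largest d at 12 somites belonged to ENSDART00000149364.2. In the 12 somites controls it stood at 2.86, 2.40 and 2.25 CPM and with atRA at 14.6, 15.6 and 14.9 CPM. The groups did not overlap, and the atRA mean of 15.0 ± 0.525 CPM (SD, n = 3) was 6.01-fold above the control mean. At 80% epiboly the controls stood at 27.4, 37.5 and 23.0 CPM and the atRA libraries at 36.5, 28.3 and 24.6 CPM, which overlap. At 24 hpf the transcript was nearly absent, with 9, 3 and 1 counts in the controls and 1, 2 and 3 with atRA. From control 80% epiboly to control 24 hpf the fitted log2 change was -9.24 with an SE of 0.427 and an edgeR adjusted p = 6.19e-07, a size that rests on those few counts. At 24 hpf atRA was not tested against control for it, because the counts were too low, and its d of -0.041 there reflects levels far under the pseudocount.

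ENSDART00000149356.1 followed with a d of 2.29. Its 12 somites controls stood at 2.52, 2.09 and 1.91 CPM and its atRA libraries at 12.2, 13.2 and 12.3 CPM, again without overlap. The means of 2.17 ± 0.313 and 12.6 ± 0.544 CPM (SD, n = 3) were 5.78-fold apart. At 80% epiboly it was at 26.8, 35.0 and 22.2 CPM in controls and 33.9, 26.6 and 24.9 CPM with atRA, and at 24 hpf it held 5, 2 and 0 counts in controls and 1, 1 and 2 with atRA. From 80% epiboly to 24 hpf its log2 change in controls was -10.0 with an SE of 0.442 and an edgeR adjusted p = 5.03e-07, again from few counts at 24 hpf. In the 12 libraries with at least 100 counts of both IDs, their counts differed by 1.2 to 17.8%. Each was counted as a member, since the limit of 10% for near-identical counts did not join them. They should not be read as independent observations, and whether they share reads was not tested.

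Among members with at least 10 mean counts in both control groups and no overlap between them, ENSDART00000148188.1 had the largest fall from control 80% epiboly to control 24 hpf. Its control libraries stood at 120.3, 123.2 and 115.6 CPM at 80% epiboly and at 1.88, 0.769 and 1.59 CPM at 24 hpf. On the log2 scale this was -6.79 with an SE of 0.280 and an edgeR adjusted p = 3.85e-07. At 12 somites, controls stood at 6.87, 6.39 and 5.43 CPM and atRA libraries at 22.3, 20.5 and 24.6 CPM, without overlap. The 12 somites atRA mean of 22.5 ± 2.06 CPM (SD, n = 3) lay between the control means of 119.7 ± 3.87 CPM at 80% epiboly and 1.42 ± 0.578 CPM at 24 hpf. With atRA it stood at 139.7, 140.4 and 133.2 CPM at 80% epiboly, above every control there, and at 1.83, 2.66 and 1.76 CPM at 24 hpf, where the groups overlap. At 80% epiboly edgeR called it higher with atRA, by a log2 fold change of 0.14 (adjusted p = 0.0282), and its d was 0.20.

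ENSDART00000131256.1 had the next largest fall under the same conditions. Its controls stood at 12.6, 13.3 and 11.8 CPM at 80% epiboly and at 0.577, 0.641 and 0.336 CPM at 24 hpf, which edgeR fitted as -4.96 on the log2 scale with an SE of 0.264 and an adjusted p = 1.18e-06. At 12 somites it stood at 2.05, 2.09 and 1.31 CPM in controls and at 4.04, 4.08 and 4.52 CPM with atRA, without overlap and with a d of 1.02, close to the threshold. With atRA it stood at 12.5, 11.7 and 11.5 CPM at 80% epiboly, overlapping the controls. At 24 hpf it stood at 0.722, 0.776 and 1.09 CPM with atRA, each above every control, with a log2 fold change of 0.82 whose 95% interval ran from -0.035 to 1.68.

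**Figure D5:**
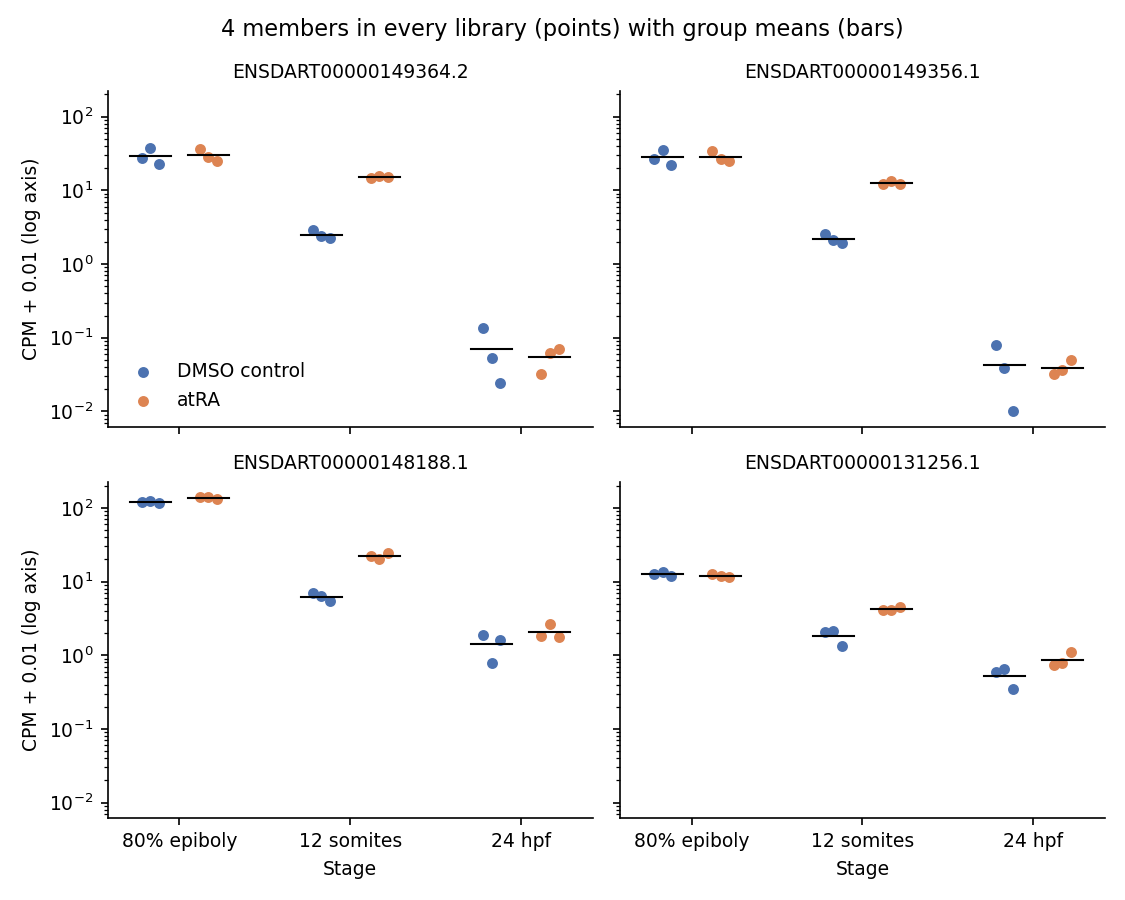
Points are the CPM of 1 library each, plus 0.01, on a log axis, for the 4 named members at 80% epiboly, 12 somites and 24 hpf, and black bars are group means (n = 3). At 12 somites each atRA library (orange) lies above each control library (blue) in all 4 members, and in controls all 4 fall from stage to stage.

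The members' course through development was last set beside that of transcripts with other responses, chosen by thresholds of the same form. Of 54 transcripts raised at 80% epiboly and 12 somites and flat at 24 hpf, 77.8% rose and 9.26% fell between the control stages. Of 36 raised at 12 somites and 24 hpf and flat at 80% epiboly, 77.8% rose and 11.1% fell. Of 227 lowered at 12 somites and flat at the other stages, 74.4% rose and 11.5% fell. Among the members 61.6% rose and 28.8% fell. Of the 477 transcripts with a d of at least 1 at 12 somites, 69.4% rose and 21.0% fell. The share of falling transcripts in the members was higher than in these sets but lower than the 36.7% of all transcripts tested. Shares of the members and sets are over all their IDs, tested or not, while the 36.7% is over tested transcripts only. Over the 121 members tested, 63.6% rose and 29.8% fell. The differences between these sets were not tested. The share under 0.5 CPM in both groups at 80% epiboly differed as well, at 51.2% of members, 80.6% of the second set and 59.5% of the last. It was 31.0% of the 477, which were not chosen for a flat d there, and 29.3% of all transcripts tested. In the first set it was 0% by construction, since a d of at least 1 at 80% epiboly needs an atRA mean of at least 0.5 CPM.

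Some members were not separate observations. In 4 members the counts equalled those of some other ID in each of the 18 libraries, and the 125 members held 123 distinct count profiles. Counts within 10% of another member's in every library with at least 10 counts were found for 19 members, in 9 sets of up to 3. Taking each such set as 1 left 115 members, of which 72 rose and 31 fell between the control stages. With 1 ID kept per set of identical counts, atRA against control called 4 of 116 members at 24 hpf, against 9.58% of all transcripts tested. At 80% epiboly it called 24 of 82, against 27.7%. Near-identical sets were not merged in the calls of atRA against control, so some of those calls are not separate observations.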

How the data were processed

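The deposited files hold raw counts per transcript ID, 1 file per library. STAR and HTSeq, and the builds GRCz10 and danRer10, are named in the submitters' processing notes. The strand setting, the annotation release and the treatment of shared reads are not given in the sources used here. Of each file, 5 summary lines stayed out of totals and tests. As shares of transcript counts plus summary lines, the ambiguous line held 16.9 to 18.9%, the line for no feature 3.1 to 6.35% and the line for alignments that were not unique 7.12 to 9.38%. The line for low alignment quality equalled the last of these in each library and was left out of that total. How reads shared by isoforms, near-identical copies or antisense genes were assigned is therefore unknown. At 24 hpf these shares of the summary lines did not overlap between treatments. The ambiguous share was 16.9 to 17.1% in controls and 17.9 to 18.0% with atRA. The share of no feature was 5.60 to 6.35% and 3.83 to 4.29%, and that of alignments not unique 9.06 to 9.38% and 7.66 to 8.03%. Whether this moved d at 24 hpf was not tested.

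CPM here was computed from the deposited counts by library total. It compares 1 ID between libraries and not different IDs, because it is not scaled to length. Tests used edgeR 4.0.16 in R 4.3.3 (filterByExpr, TMM factors, glmQLFit, glmQLFTest) on the 6 libraries of each comparison, with Benjamini-Hochberg adjustment over all transcripts tested and calls at an adjusted p under 0.05. Standard errors are the absolute log2 fold change over the square root of F, and 95% intervals use the test's degrees of freedom. The code was tested on simulated data. The alternatives tried, among them DESeq2 1.42.0, are in the closing section. Named IDs, at most 4 since no ID carries a gene name, were the 2 members with the largest d at 12 somites and the 2 with the largest fall between control stages, with at least 10 mean counts and no overlap. Members and lists were chosen with earlier results of these data known.

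Deviations of same-numbered libraries from their group means correlated at -0.50 to 0.077 over the 5 comparisons, so the replicate numbers were not taken as pairs. For atRA against control at 24 hpf the values were 0.077, -0.46 and -0.50 in replicates 1, 2 and 3. In the other comparisons they lay between -0.13 and 0.031. The cause of the negative values at 24 hpf was not tested. Intervals rest on the spread between these libraries only. Gene lists for retinoic acid genes, hox genes and cell types, written for this work, could not be used, because 0 of the 58549 IDs could be named.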

Additional observations from a re-analysis of the deposited data

How the results depend on the processing

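The number of members depended on the rule's settings: 240 with a pseudocount of 0.1 CPM, 85 of them shared with the 125, and 82 with 1 CPM, 69 shared. Limits of 0.25 at the flat stages left 54, and a mean of at least 1 CPM in a group of each stage left 40, both fewer by construction. TMM library sizes gave 111, with 106 shared. Omitting each library in turn gave 111 to 139, and 57 members were kept in every such refit.

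Requiring 10 counts in every library, which removes transcripts near 0 at 1 stage, left 58 called members in place of 113 between the control stages, 27 higher and 31 lower of 63 tested, and 66 in place of 113 between the atRA stages, 38 higher and 28 lower of 72 tested. Leaving out 1 library gave 112 to 115 and 112 to 114. Counting sets of near-identical members as 1 and keeping 1 ID per set of identical counts were chosen after seeing the data and changed neither count by over 1.5 times.

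At 80% epiboly 5 of 24 called members also changed by 1 or more on the log2 scale, and leaving out 1 library gave 14 to 20 (14 without atRA replicate 3, 15 without atRA replicate 2). At 24 hpf the 5 called members became 3 with that condition, where 4.1% of all transcripts were called, 2 with library totals (9.96%), 1 with no filter on low counts (6.85%) and 9 with DESeq2 (14.2%). A fit of all 18 libraries called 30 of 125 members (24.0%), against 24.6% of all transcripts. Of these members 26 were higher (20.8%) and 4 lower (3.2%), against 11% and 13.6% of all transcripts. With the replicate block it was 0, with 154 of 41404 transcripts called, and the replicate number as a block changed no other count by over 1.5 times. Leaving out 1 library gave 0 to 17. The cause of these changes was not tested. The fall of the 4 named members between the control stages stayed called, with the same sign, in the 54 of 54 refits that tested them. ENSDART00000149364.2 and ENSDART00000149356.1 were not tested where 10 counts were required in every library. The other 2 were named for a called fall and the refits share libraries, so this is description.

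Depth limits the values of the named IDs with under 10 counts at 24 hpf.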
